A study of Mus musculus with 13 samples.

Results

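The genes described here are 58 genes of the machinery that separates chromosomes and divides the cell, taken by symbol from a table of read counts for 46958 genes, and 57 of them had enough reads to be tested. They were chosen by name, as genes of the mitotic spindle, the kinetochore and cytokinesis, and not by a threshold on these counts. The choice was made with earlier results of these data known, so the shares of members called are a description and not a test. The counts come from messenger RNA of mouse glomeruli, the filtering tufts of the kidney, purified with magnetic beads at an age of 6 months. A group of 4 libraries came from mice labelled kFRA (LCDD), 4 from mice labelled DH-LMP2A, and 5 from wild type (WT) mice, all on a mixed background of the C57/BL6, 129/SV and BALB/c strains. Each library pooled 3 mice, except WT replicates 3, 4 and 5, which are 1 mouse each. In light chain deposition disease (LCDD), monoclonal immunoglobulin light chains settle in the kidney, and the title of the series asks what free light chains do to glomeruli. As general knowledge of this mouse model and not from the labels, kFRA is a pathogenic kappa light chain gene placed in the mouse kappa locus, and DH-LMP2A is an allele at the heavy chain locus that expresses a viral membrane protein and drives B cells to plasma cells that make no heavy chain. The labels do not say whether the LCDD mice also carry DH-LMP2A.

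A dividing cell builds cyclins that switch on the kinase CDK1, condenses its chromosomes, attaches each one through its kinetochore to spindle microtubules, waits at a checkpoint until all are attached, and then splits at a midzone and a contractile ring. Most of these genes are transcribed late in the cell cycle and are nearly silent in resting cells. Mature podocytes do not normally divide, while mesangial and endothelial cells of the glomerulus can, and mesangial proliferation is a familiar feature of many glomerular diseases.

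In LCDD glomeruli most of this machinery was more abundant than in either other genotype. Against DH-LMP2A, 33 of the 57 tested members were higher and 0 lower at an adjusted p under 0.05 (edgeR quasi-likelihood test, adjusted over all 16738 genes tested), where 1.30% of all genes tested were called higher. Against WT, 40 were higher and 0 lower, again beside 1.30% of all genes tested. All 33 genes called against DH-LMP2A were also called against WT, and 0.741% of all genes tested were called higher in both. The median log2 fold change of the tested members was 1.88 against DH-LMP2A and 1.96 against WT, and over all genes tested it was -0.01 and 0.01. Between DH-LMP2A and WT edgeR called 0 of 57 members, beside 0.627% of all genes tested in either direction. In that fit 2 members had an unadjusted edgeR p under 0.05, beside 2085 of all 16738 genes tested. DESeq2 called 1 member, Foxm1, beside 243 genes higher and 229 lower over the 19333 genes it tested. The comparisons with LCDD share the LCDD libraries, so they are not separate evidence. In a fit of DH-LMP2A and WT alone, 52 members passed the read filter. Members that passed only through their LCDD libraries could enter only when higher in LCDD. They add no support to the counts given here and below.

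Every LCDD library lay above every library of both other genotypes for 47 of the 57 tested members, a pattern shown by 1.56% of all genes tested. LCDD lay entirely above every DH-LMP2A library for 49 members (4.74% of all genes) and above every WT library for 48 (2.97%). Summed over the members, normalised abundance was 366.8 ± 114 CPM (SD, n = 4; CPM are reads scaled to library size) in LCDD, 158.9 ± 18.5 CPM (SD, n = 4) in DH-LMP2A and 155.9 ± 27.4 CPM (SD, n = 5) in WT. The sums of single libraries ran from 287 to 533 CPM in LCDD, from 135 to 180 in DH-LMP2A and from 110 to 183 in WT, so the LCDD range does not overlap the others. In whole glomeruli, more dividing cells and more of these transcripts per cell cannot be told apart.

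**Figure D1:**
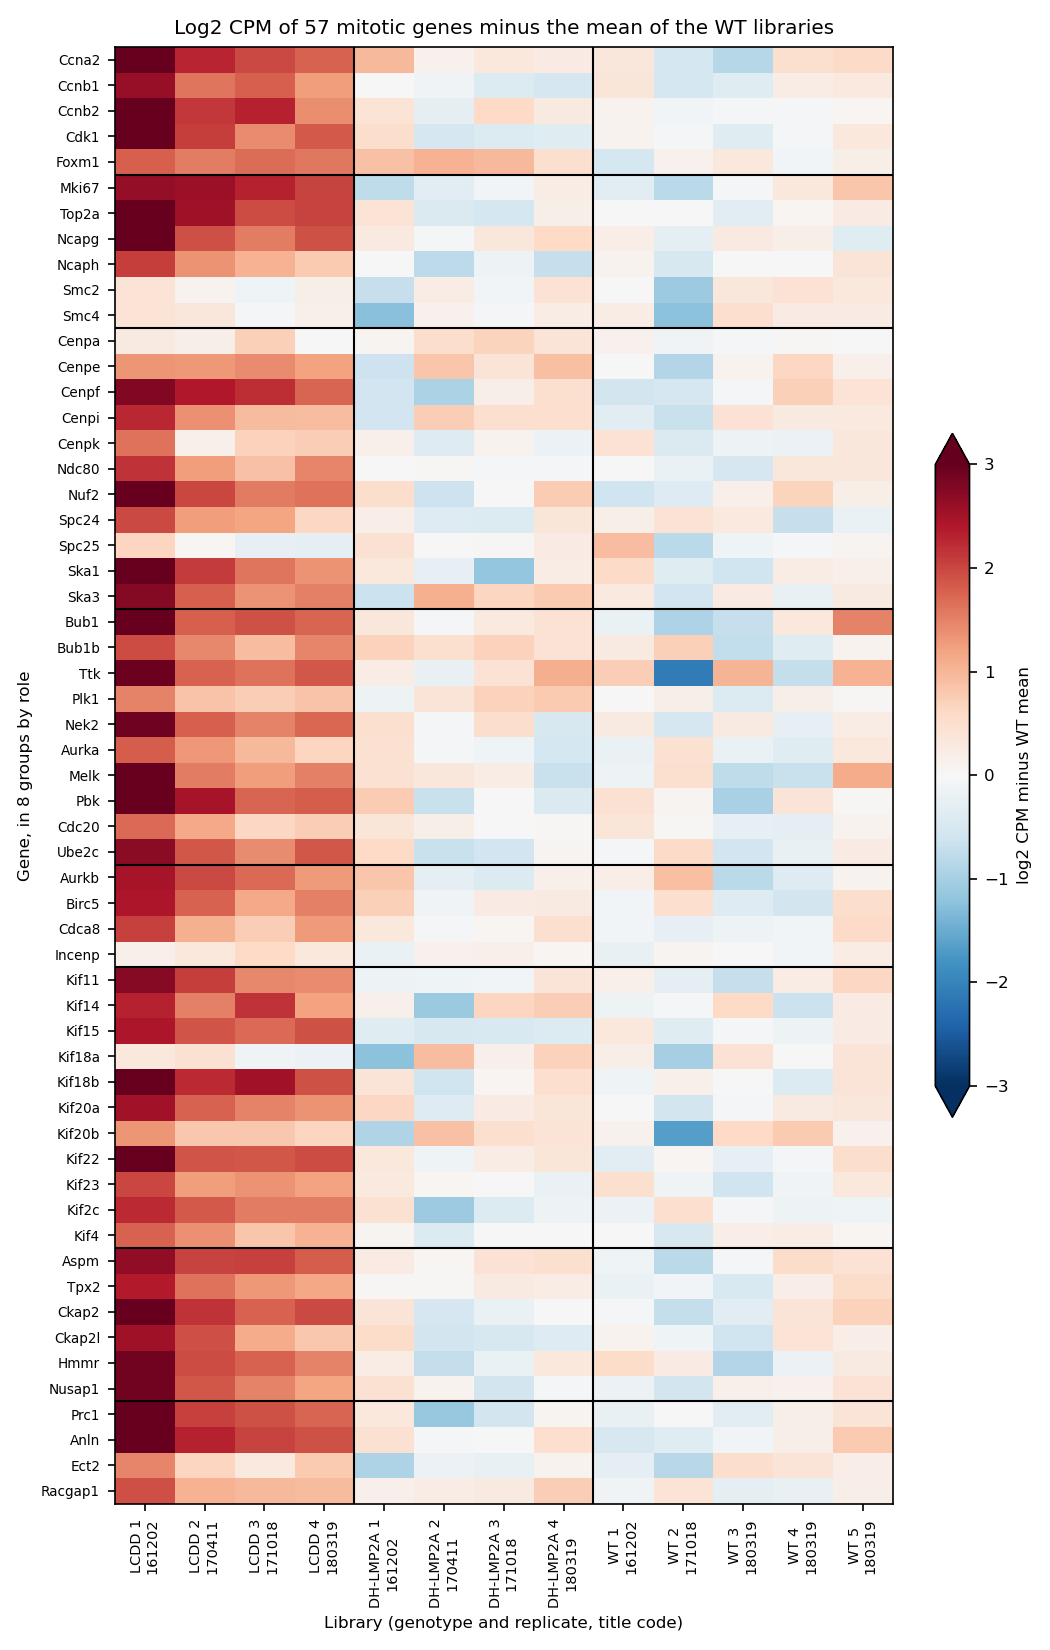
Each row is 1 of the 57 tested members, in 8 groups by role, and each column 1 of 13 libraries; colour is log2 CPM minus the mean of the WT libraries (red above, blue below). The 4 LCDD columns are red in most rows, and LCDD replicate 1 is the highest of all libraries in 50 of them.

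How many members pass the threshold rests on certain libraries. Without DH-LMP2A replicate 2, 3 or 4, the count against DH-LMP2A was 13, 14 or 17 instead of 33. Over all genes tested, the number called higher was 71, 75 or 84 instead of 218. In these fits 49 to 50 members had an unadjusted p under 0.05, as did 1703, 1734 or 1708 of all genes tested. The median stayed between 1.49 and 2.01 whichever library was left out. Against WT, the count was 5 instead of 40 without the 3 single-mouse WT libraries, with 51 members at an unadjusted p under 0.05 and a median of 1.83. Over all genes tested, that fit called 28 higher instead of 217, and 1251 had an unadjusted p under 0.05. With the mean log2 CPM of the Y-linked genes as a covariate, edgeR called 0 members against WT, and 9 genes higher over all genes tested. In that fit 38 members had an unadjusted p under 0.05, beside 1418 of all genes tested, and the median of the members was 1.72. Y-linked transcripts summed to 0 to 27.0 CPM in WT, 68.3 to 223 in DH-LMP2A and 18.0 to 220 in LCDD, so in comparisons with WT the genotype and the sex makeup of the libraries largely cannot be told apart. The same covariate left 35 members called against DH-LMP2A, beside 246 genes called higher over all genes tested.

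Total counts per library ran from 16687509 to 30587890, and a member had a median of 87 reads in an LCDD library, 28 in a DH-LMP2A library and 25 in a WT library. The sample titles carry a 6-digit code of unstated meaning, shared by libraries of different genotypes. Replicates 1 to 4 of LCDD and of DH-LMP2A carry the codes in ascending order. WT replicate 1 carries the first code, WT replicate 2 the third, and WT replicates 3 to 5 the fourth. LCDD and DH-LMP2A libraries of the same code deviated together from their genotype means over all genes (mean correlation 0.421, lowest 0.153). Those of different codes had a mean correlation of -0.139, from -0.599 to 0.524, so the ranges overlap. Over the members alone, same-code libraries correlated at 0.532, 0.199, 0.372 and 0.0192 in code order. The code is thus a possible pairing only, and the blocked fit is given where it changes a call against DH-LMP2A. With the code as a block, 40 members were called higher, beside 3.24% of all genes tested. The 7 gained were Kif14, Bub1, Aurka, Cdc20, Cdca8, Foxm1 and Spc24. Against WT the block gave 39, beside 2.05%. The p-values measure the spread between these libraries.

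Many late cell cycle genes carry 2 short promoter elements, the cell cycle homology region (TTTGAA, or TTCAAA when read on the other strand) and the CCAAT box (ATTGG on the other strand). RefSeq promoter windows of 300 bases on build GRCm38.p6, from 250 bases before the start of a transcript to 50 after it, were at hand for 47 of the 58 members, as 51 windows. TTTGAA on either strand lay in 37 of the 51 (72.5%), beside 17.9% of all 32851 windows. CCAAT on either strand lay in 39 (76.5%), beside 37.4%, and both lay in 31 (60.8%), beside 6.95%. A related form, TTTAAA, which reads the same on both strands, lay in 11 (21.6%), beside 13.2%. In the 100 bases around the start, TTTGAA lay in 33 of 51 (64.7%), beside 4.94% of all windows. Of the windows of members called in both LCDD comparisons, 22 of 28 (78.6%) held TTTGAA, and of members called in neither, 9 of 17 (52.9%). CCAAT lay in 20 of those 28 (71.4%) and in 14 of those 17 (82.4%). Within the 100 bases around the start, TTTGAA lay in 19 of the 28 (67.9%) and 9 of the 17 (52.9%). CCAAT lay there in 12 (42.9%) and 10 (58.8%). The 28 windows belong to 27 genes and the 17 to 14 genes, so some genes count more than once.

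The stretches below show the elements in 7 called members with high folds or of central function, and in Kif18a, which was called in neither comparison and whose stretch holds none. They were chosen after the values were seen. All run 5′ to 3′ on the strand of the gene, capitals mark each match to one of these 3 elements on either strand, and base -1 is the last before the annotated start. A match is a description of the letters and not evidence that a factor binds. The stretches are chr9:70421555-70421704 (minus strand, cyclin B2), chr11:99024190-99024339 (minus, topoisomerase II alpha), chr7:135716380-135716529 (minus, Ki-67), chr5:45669769-45669918 (plus, a condensin subunit), chr19:37376232-37376381 (plus, the motor that separates spindle poles), chr9:122950931-122951080 (plus, a spindle motor), chr2:129297213-129297362 (minus, a spindle protein) and chr2:109280588-109280737 (plus, a motor that limits chromosome movement).
Ccnb2: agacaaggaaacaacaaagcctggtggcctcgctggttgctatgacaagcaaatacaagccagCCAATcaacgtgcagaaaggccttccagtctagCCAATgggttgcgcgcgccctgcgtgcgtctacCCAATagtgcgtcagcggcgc
Top2a: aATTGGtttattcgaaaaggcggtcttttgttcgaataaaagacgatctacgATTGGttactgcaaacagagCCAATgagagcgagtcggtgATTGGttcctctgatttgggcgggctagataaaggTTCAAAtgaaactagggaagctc
Mki67: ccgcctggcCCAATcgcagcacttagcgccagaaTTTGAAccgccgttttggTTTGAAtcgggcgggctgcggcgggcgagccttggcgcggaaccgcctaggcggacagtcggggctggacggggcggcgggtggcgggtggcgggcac
Ncapg: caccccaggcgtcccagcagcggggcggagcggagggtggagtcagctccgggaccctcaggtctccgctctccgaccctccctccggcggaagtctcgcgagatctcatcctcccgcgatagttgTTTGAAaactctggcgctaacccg
Kif11: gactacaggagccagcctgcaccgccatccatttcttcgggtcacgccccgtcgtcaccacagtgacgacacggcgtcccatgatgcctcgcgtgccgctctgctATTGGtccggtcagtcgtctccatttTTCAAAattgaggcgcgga
Kif15: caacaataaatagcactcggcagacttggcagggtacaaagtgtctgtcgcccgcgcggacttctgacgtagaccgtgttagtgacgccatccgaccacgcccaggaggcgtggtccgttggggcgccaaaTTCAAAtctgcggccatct
Ckap2l: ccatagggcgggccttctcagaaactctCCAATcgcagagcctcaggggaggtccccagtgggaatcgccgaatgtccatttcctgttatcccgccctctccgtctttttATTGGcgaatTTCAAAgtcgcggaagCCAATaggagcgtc
Kif18a: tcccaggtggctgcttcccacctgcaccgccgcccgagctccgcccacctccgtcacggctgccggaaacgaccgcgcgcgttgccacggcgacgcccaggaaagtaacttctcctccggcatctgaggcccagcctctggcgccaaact
The Ccnb2 stretch holds CCAAT boxes that begin at bases -87, -54 and -21, and its TTTGAA matches begin at -167 and at base 4 after the start, both outside the stretch printed. Kif11 carries a CCAAT match at -45 and a TTTGAA match at -19. In Top2a, TTTGAA begins at -23, downstream of CCAAT matches at -149, -98, -78 and -58. The Ncapg stretch, which ends at base -7, and the Kif15 stretch hold TTTGAA, at -30 and -19, and no CCAAT.

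The engine of mitosis is CDK1 with its cyclins. Of 6 members in this group 5 were tested; 4 were called higher against DH-LMP2A and all 5 against WT, with median log2 fold changes of 2.26 and 2.35. Cdk1, the kinase itself (chr10:69336635-69352938, build GRCm38 as in the deposited table), stood at 20.5, 9.11, 5.71 and 7.69 CPM in LCDD replicates 1 to 4, 3.03, 1.44, 1.54 and 1.61 in DH-LMP2A replicates 1 to 4, and 2.26, 2.04, 1.60, 2.01 and 2.64 in WT replicates 1 to 5. The lowest LCDD library lay above the highest of the other 9, which was DH-LMP2A replicate 1. Cdk1 was higher in LCDD against DH-LMP2A by 2.49 ± 0.39 (SE, log2 scale, edgeR adjusted p = 0.00695) and against WT by 2.35 ± 0.36 (SE, adjusted p = 0.00526). Ccna2, cyclin A2, stood at 15.3, 7.42, 5.92 and 5.17 CPM in LCDD replicates 1 to 4, 2.92, 1.59, 1.83 and 1.75 in DH-LMP2A replicates 1 to 4, and 1.84, 0.988, 0.761, 2.06 and 2.19 in WT replicates 1 to 5. All LCDD libraries were higher than all others, replicate 1 most of all. Ccna2 was higher in LCDD against DH-LMP2A by 2.06 ± 0.42 (SE, log2 scale, edgeR adjusted p = 0.0252) and against WT by 2.42 ± 0.39 (SE, adjusted p = 0.00714). The B cyclins, which carry CDK1 into mitosis, were also called: Ccnb1 at 2.35 and 2.01, and Ccnb2 at 2.26 and 2.55 on the log2 scale against DH-LMP2A and WT. Cdc25c, the phosphatase that activates CDK1, had too few reads to be tested, with 9 to 24 counts in LCDD libraries, 2 to 5 in DH-LMP2A and 1 to 7 in WT. Its LCDD values, 0.34 to 0.92 CPM, lay above the highest of the other libraries, 0.23 CPM.

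Foxm1, the transcription factor that drives many late cell cycle genes, gave a separate range in each genotype. It (chr6:128362967-128376146) stood at 12.3, 10.2, 11.3 and 10.5 CPM in LCDD replicates 1 to 4, 6.40, 7.22, 6.91 and 4.88 in DH-LMP2A replicates 1 to 4, and 2.36, 3.77, 4.36, 3.27 and 3.93 in WT replicates 1 to 5. The 3 genotypes did not overlap, with LCDD highest, DH-LMP2A between and WT lowest. Against WT it was higher in LCDD by 1.65 ± 0.19 (SE, edgeR adjusted p = 0.000698). Against DH-LMP2A the difference was 0.80 ± 0.20 (SE, edgeR adjusted p = 0.0629), and 0.81 with an adjusted p of 0.0453 with the code as a block. DH-LMP2A lay above WT by 0.84 ± 0.19 (SE, edgeR adjusted p = 0.0728), the largest difference of any member in that comparison. DESeq2 gave this difference an adjusted p of 0.00157, edgeR without WT replicate 1 gave 0.0453, and edgeR with the Y-linked covariate gave 0.617 with a difference of 0.62.

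**Figure D2:**
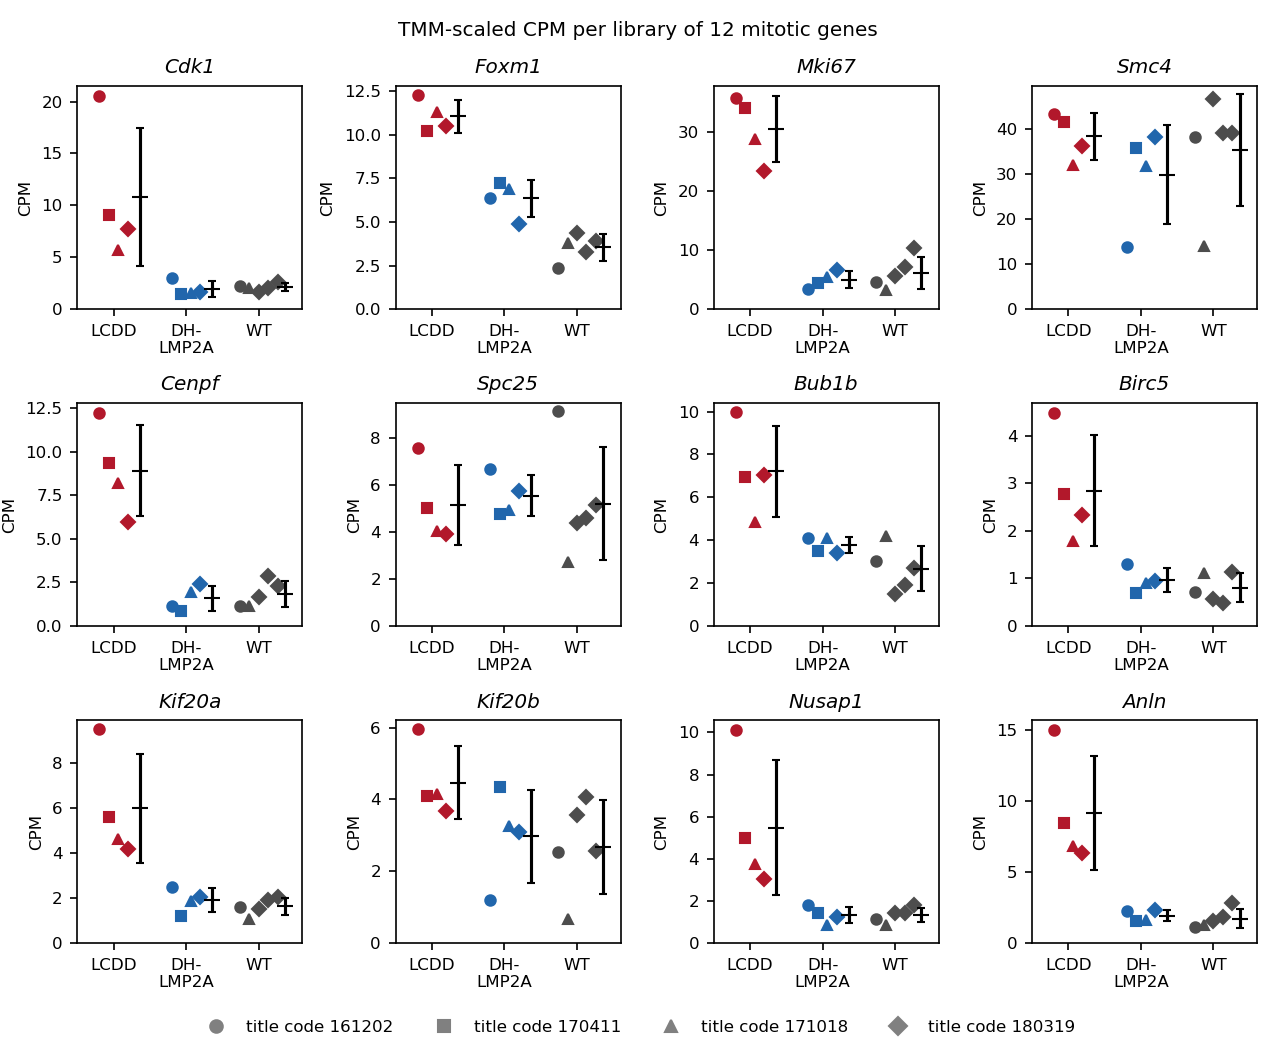
CPM in each library for 12 members on linear axes that start at 0; marker shape gives the title code, and bars give the mean and SD of each genotype (n = 4, 4 and 5). LCDD points lie above the rest for 9 genes and overlap with them for Smc4, Spc25 and Kif20b.

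Of 6 members that shape chromosomes, 4 were called in both LCDD comparisons. Mki67, which encodes Ki-67, a coat of mitotic chromosomes used to mark dividing cells (chr7:135689788-135716379), stood at 35.8, 34.1, 28.9 and 23.4 CPM in LCDD replicates 1 to 4, 3.37, 4.48, 5.42 and 6.67 in DH-LMP2A replicates 1 to 4, and 4.59, 3.21, 5.61, 7.16 and 10.3 in WT replicates 1 to 5. The LCDD libraries lay together and far from the others, and the other genotypes overlapped. Mki67 was higher in LCDD against DH-LMP2A by 2.62 ± 0.33 (SE, log2 scale, edgeR adjusted p = 0.00152) and against WT by 2.30 ± 0.30 (SE, adjusted p = 0.00177). Top2a, which untangles sister chromatids, had log2 fold changes of 2.68 and 2.62. The condensin I subunits Ncapg (2.24 and 2.56) and Ncaph (1.83 and 1.40) were called as well. The core subunits that all condensins share were not. Smc4 stood at 43.4, 41.7, 32.1 and 36.3 CPM in LCDD replicates 1 to 4, 13.8, 35.7, 31.9 and 38.2 in DH-LMP2A replicates 1 to 4, and 38.3, 14.0, 46.6, 39.1 and 39.1 in WT replicates 1 to 5. The genotypes overlapped, and DH-LMP2A replicate 1 and WT replicate 2 were far below the rest. Smc2 stood at 24.0, 19.3, 16.4 and 20.4 CPM in LCDD replicates 1 to 4, 11.2, 21.1, 16.9 and 24.4 in DH-LMP2A replicates 1 to 4, and 18.0, 8.40, 22.8, 24.2 and 22.5 in WT replicates 1 to 5. The same libraries were lowest of their genotypes. The log2 differences of Smc4 were 0.36 ± 0.34 and 0.11 ± 0.32 (SE, edgeR adjusted p = 0.725 and 0.959) and those of Smc2 0.13 ± 0.30 and 0.06 ± 0.28 (SE, adjusted p = 0.903 and 0.975).

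In the kinetochore group, 4 of 11 members were called against DH-LMP2A and 5 against WT, with medians of 1.45 and 1.54. Cenpf, a large protein of the outer kinetochore (chr1:189640606-189688086), stood at 12.2, 9.33, 8.19 and 5.96 CPM in LCDD replicates 1 to 4, 1.12, 0.852, 1.94 and 2.42 in DH-LMP2A replicates 1 to 4, and 1.13, 1.17, 1.64, 2.86 and 2.31 in WT replicates 1 to 5. Its LCDD libraries were above all others. Cenpf was higher in LCDD against DH-LMP2A by 2.50 ± 0.40 (SE, log2 scale, edgeR adjusted p = 0.00722) and against WT by 2.29 ± 0.37 (SE, adjusted p = 0.00660). The microtubule-binding NDC80 complex showed both behaviours: Ndc80 (1.61 and 1.56) and Nuf2 (2.14 and 2.35) were called in both comparisons. Spc24, at 1.45 and 1.38, had edgeR adjusted p-values of 0.0665 and 0.0656, and 0.0453 against DH-LMP2A with the block. Spc25, the remaining subunit, stood at 7.60, 5.04, 4.04 and 3.90 CPM in LCDD replicates 1 to 4, 6.70, 4.78, 4.97 and 5.77 in DH-LMP2A replicates 1 to 4, and 9.19, 2.72, 4.40, 4.61 and 5.15 in WT replicates 1 to 5. The genotypes overlapped throughout. Its differences were -0.11 ± 0.33 and -0.02 ± 0.31 (SE, edgeR adjusted p = 0.925 and 0.992). Cenpa, the histone H3 variant that marks centromeres, stood at 11.4, 10.7, 15.5 and 9.54 CPM in LCDD replicates 1 to 4, 10.1, 13.7, 15.1 and 12.4 in DH-LMP2A replicates 1 to 4, and 10.3, 8.77, 9.09, 9.67 and 9.53 in WT replicates 1 to 5. No genotype stood apart. Its differences were -0.12 ± 0.17 and 0.31 ± 0.16 (SE, edgeR adjusted p = 0.823 and 0.497).

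Of the SKA complex, which holds kinetochores on shrinking microtubules, Ska1 (chr18:74195299-74207818) had the largest fold of any member in both comparisons, 3.24 ± 0.71 and 2.97 ± 0.63 (SE, edgeR adjusted p = 0.0351 and 0.0299). It rested on few reads, 55, 19, 9 and 10 in LCDD, 4, 2, 0 and 3 in DH-LMP2A, and 6, 1, 1, 3 and 3 in WT. Ska3 was called against WT only (2.22, edgeR adjusted p = 0.0252); against DH-LMP2A it was at 1.56 (0.128). Cenpe, a kinetochore motor, Cenpi and Cenpk, of the inner kinetochore, were called in neither, with differences from 0.84 to 1.21 against DH-LMP2A and from 0.98 to 1.54 against WT. For Cenpe and Cenpi all LCDD libraries still lay above all others.

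The checkpoint and the mitotic kinases gave 3 of 10 members called against DH-LMP2A and 5 against WT, with medians of 1.97 and 1.98. Those called in both were Nek2, a centrosome kinase (2.04 and 2.17), Pbk, a mitotic kinase (2.80 and 2.74), and Ube2c, the ubiquitin-conjugating enzyme of the anaphase-promoting complex (2.21 and 2.12). Bub1b, which encodes the checkpoint protein BubR1 (chr2:118598211-118641591), stood at 9.98, 6.96, 4.85 and 7.06 CPM in LCDD replicates 1 to 4, 4.12, 3.52, 4.11 and 3.40 in DH-LMP2A replicates 1 to 4, and 3.04, 4.20, 1.48, 1.92 and 2.72 in WT replicates 1 to 5. The LCDD libraries were above all others, with LCDD replicate 3 and WT replicate 2 nearest to each other. Bub1b was called against WT (1.44 ± 0.29, SE, edgeR adjusted p = 0.0216) and not against DH-LMP2A (0.93 ± 0.30, SE, adjusted p = 0.163). Cdc20, which activates the anaphase-promoting complex, stood at 8.59, 5.80, 4.04 and 4.34 CPM in LCDD replicates 1 to 4, 3.33, 2.93, 2.57 and 2.64 in DH-LMP2A replicates 1 to 4, and 3.36, 2.66, 2.16, 2.10 and 2.80 in WT replicates 1 to 5. Again the LCDD libraries did not overlap the others. Cdc20 was called against WT (1.12 ± 0.24, SE, edgeR adjusted p = 0.0333). Against DH-LMP2A it was at 0.99 ± 0.26 (SE, adjusted p = 0.0750, and 0.0193 with the block).

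Plk1, a kinase that acts at centrosomes, kinetochores and the midzone, stood at 3.95, 2.52, 2.32 and 2.52 CPM in LCDD replicates 1 to 4, 1.20, 1.78, 2.23 and 2.37 in DH-LMP2A replicates 1 to 4, and 1.36, 1.54, 1.0, 1.52 and 1.38 in WT replicates 1 to 5. LCDD replicate 1 stood above its own genotype, and LCDD replicate 3 lay below DH-LMP2A replicate 4. Plk1 was called in neither comparison (0.58 ± 0.27 and 1.06 ± 0.26, SE, edgeR adjusted p = 0.382 and 0.0594). The checkpoint kinases Bub1 (2.35 and 2.31) and Ttk (1.90 and 1.90), the spindle pole kinase Aurka (1.31 and 1.28) and Melk (2.08 and 2.06) were called in neither either. In all 4 genes every LCDD library lay above every other library. With the block, Bub1 (2.28, edgeR adjusted p = 0.0499) and Aurka (1.30, 0.0335) passed the threshold against DH-LMP2A.

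The chromosomal passenger complex corrects faulty attachments and later guides cytokinesis. Its kinase Aurkb (1.88 and 1.96) and its subunit Birc5, or survivin, were called in both comparisons. Birc5 (chr11:117849251-117855743) stood at 4.49, 2.79, 1.78 and 2.33 CPM in LCDD replicates 1 to 4, 1.31, 0.704, 0.914 and 0.940 in DH-LMP2A replicates 1 to 4, and 0.712, 1.11, 0.561, 0.492 and 1.14 in WT replicates 1 to 5. All LCDD libraries lay above the others. Birc5 was higher in LCDD against DH-LMP2A by 1.55 ± 0.36 (SE, log2 scale, edgeR adjusted p = 0.0474) and against WT by 1.83 ± 0.34 (SE, adjusted p = 0.0152). Cdca8, borealin, stood at 4.57, 2.26, 1.78 and 2.64 CPM in LCDD replicates 1 to 4, 1.31, 1.0, 1.08 and 1.48 in DH-LMP2A replicates 1 to 4, and 0.971, 0.865, 0.921, 0.984 and 1.58 in WT replicates 1 to 5. LCDD was again above the rest, with WT replicate 5 the highest of WT. It was called against WT (1.40 ± 0.30, SE, edgeR adjusted p = 0.0299), and against DH-LMP2A with the block only (1.16, adjusted p 0.0367; 0.0756 without it). Incenp, the scaffold, stood at 14.4, 16.1, 19.7 and 16.1 CPM in LCDD replicates 1 to 4, 11.3, 14.3, 14.4 and 13.6 in DH-LMP2A replicates 1 to 4, and 11.1, 13.8, 13, 12.2 and 15.2 in WT replicates 1 to 5. The genotypes overlapped. Incenp was at 0.31 ± 0.14 and 0.34 ± 0.13 (SE, edgeR adjusted p = 0.379 and 0.282).

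Among kinesins, the motors that move along microtubules, 8 of 11 were called against DH-LMP2A and 9 against WT. Kif15, which helps Kif11 keep the spindle bipolar, had the smallest adjusted p of any member against DH-LMP2A, with against DH-LMP2A by 2.67 ± 0.27 (SE, log2 scale, edgeR adjusted p = 0.000328) and against WT by 2.13 ± 0.24 (SE, adjusted p = 0.000687). It (chr9:122951081-123018725) stood at 3.07, 2.07, 1.83 and 2.13 CPM in LCDD replicates 1 to 4, 0.374, 0.333, 0.343 and 0.358 in DH-LMP2A replicates 1 to 4, and 0.647, 0.371, 0.480, 0.447 and 0.608 in WT replicates 1 to 5. LCDD did not overlap the others, and Kif15 was also the member with the lowest value in DH-LMP2A relative to WT, -0.54 ± 0.27 (SE, edgeR adjusted p = 0.431). Kif23, a centralspindlin motor of the midzone, stood at 7.94, 4.70, 5.06 and 4.58 CPM in LCDD replicates 1 to 4, 2.39, 2.00, 1.94 and 1.66 in DH-LMP2A replicates 1 to 4, and 2.72, 1.79, 1.24, 1.79 and 2.43 in WT replicates 1 to 5. All LCDD libraries were the highest. Kif23 was higher in LCDD against DH-LMP2A by 1.48 ± 0.28 (SE, log2 scale, edgeR adjusted p = 0.0166) and against WT by 1.48 ± 0.26 (SE, adjusted p = 0.0104). Kif20a, a motor needed for cytokinesis, stood at 9.48, 5.61, 4.63 and 4.18 CPM in LCDD replicates 1 to 4, 2.47, 1.19, 1.88 and 2.06 in DH-LMP2A replicates 1 to 4, and 1.59, 1.05, 1.52, 1.92 and 2.03 in WT replicates 1 to 5. LCDD lay above the rest. Kif20a was higher in LCDD against DH-LMP2A by 1.65 ± 0.32 (SE, log2 scale, edgeR adjusted p = 0.0196) and against WT by 1.87 ± 0.30 (SE, adjusted p = 0.00660).

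Further motors called in both comparisons were Kif11 (2.07 and 2.02), Kif18b (2.65 and 2.80), Kif22, which moves chromosome arms (2.20 and 2.39), Kif2c, which depolymerises microtubules (2.23 and 1.99), and Kif4, a chromosome-bound motor (1.42 and 1.32). Kif14 was called against WT (2.06), and against DH-LMP2A with the block (1.93, edgeR adjusted p = 0.0394) but not without it (1.84, 0.0858). Kif20b, another cytokinesis motor, stood at 5.95, 4.10, 4.15 and 3.67 CPM in LCDD replicates 1 to 4, 1.20, 4.33, 3.25 and 3.09 in DH-LMP2A replicates 1 to 4, and 2.52, 0.680, 3.56, 4.07 and 2.56 in WT replicates 1 to 5. DH-LMP2A replicate 1 and WT replicate 2 were far below the others. Kif20b was at 0.59 ± 0.46 and 0.73 ± 0.43 (SE, edgeR adjusted p = 0.657 and 0.585). Kif18a had the lowest value of any member against DH-LMP2A, -0.20 ± 0.43, and 0.06 ± 0.41 against WT (SE, edgeR adjusted p = 0.893 and 0.984).

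All 6 spindle-associated proteins were called in both comparisons, with medians of 2.00 and 2.10. Tpx2, which activates Aurora A and nucleates microtubules (chr2:152847964-152895321), stood at 13.3, 7.90, 6.25 and 5.68 CPM in LCDD replicates 1 to 4, 2.54, 2.56, 3.03 and 2.91 in DH-LMP2A replicates 1 to 4, and 2.17, 2.35, 1.80, 2.86 and 3.69 in WT replicates 1 to 5. The LCDD libraries were above the rest. Tpx2 was higher in LCDD against DH-LMP2A by 1.59 ± 0.29 (SE, log2 scale, edgeR adjusted p = 0.0161) and against WT by 1.69 ± 0.27 (SE, adjusted p = 0.00722). Ckap2l, a spindle protein, stood at 9.82, 6.44, 3.61 and 2.88 CPM in LCDD replicates 1 to 4, 2.39, 1.07, 1.14 and 1.21 in DH-LMP2A replicates 1 to 4, and 1.75, 1.48, 1.04, 2.19 and 1.87 in WT replicates 1 to 5. DH-LMP2A replicate 1 was the highest of its genotype and still below every LCDD library. Ckap2l was higher in LCDD against DH-LMP2A by 1.96 ± 0.41 (SE, log2 scale, edgeR adjusted p = 0.0299) and against WT by 1.77 ± 0.38 (SE, adjusted p = 0.0309). Nusap1, which bundles microtubules near chromosomes, stood at 10.1, 4.97, 3.77 and 3.04 CPM in LCDD replicates 1 to 4, 1.80, 1.41, 0.856 and 1.25 in DH-LMP2A replicates 1 to 4, and 1.13, 0.865, 1.44, 1.43 and 1.78 in WT replicates 1 to 5. There was no overlap with LCDD. Nusap1 was higher in LCDD against DH-LMP2A by 2.03 ± 0.39 (SE, log2 scale, edgeR adjusted p = 0.0182) and against WT by 2.03 ± 0.36 (SE, adjusted p = 0.0108). The others were Aspm, a spindle pole protein (1.93 and 2.17), Ckap2 (2.82 and 2.67) and Hmmr (2.30 and 2.18).

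At the midzone and the contractile ring, 2 of 4 members were called against DH-LMP2A and 3 against WT. Prc1, which crosslinks midzone microtubules (chr7:80294450-80316259), stood at 23.5, 11.5, 10.3 and 9.31 CPM in LCDD replicates 1 to 4, 3.40, 1.19, 1.83 and 2.87 in DH-LMP2A replicates 1 to 4, and 2.30, 2.72, 2.12, 3.09 and 3.57 in WT replicates 1 to 5. LCDD was well apart from the other genotypes. Prc1 was higher in LCDD against DH-LMP2A by 2.55 ± 0.37 (SE, log2 scale, edgeR adjusted p = 0.00485) and against WT by 2.31 ± 0.34 (SE, adjusted p = 0.00430). Anln, anillin of the contractile ring, stood at 15.0, 8.43, 6.84 and 6.35 CPM in LCDD replicates 1 to 4, 2.24, 1.56, 1.60 and 2.33 in DH-LMP2A replicates 1 to 4, and 1.13, 1.24, 1.52, 1.83 and 2.84 in WT replicates 1 to 5. It too had no overlap with LCDD. Anln was higher in LCDD against DH-LMP2A by 2.24 ± 0.35 (SE, log2 scale, edgeR adjusted p = 0.00695) and against WT by 2.41 ± 0.33 (SE, adjusted p = 0.00224). Racgap1, the partner of Kif23 in centralspindlin, stood at 13.4, 7.15, 6.79 and 6.67 CPM in LCDD replicates 1 to 4, 3.82, 4.04, 4.17 and 5.77 in DH-LMP2A replicates 1 to 4, and 3.20, 4.57, 2.84, 2.91 and 3.89 in WT replicates 1 to 5. LCDD replicate 1 was far above the other LCDD libraries, which were still above all others. Racgap1 was called against WT (1.29 ± 0.25, SE, edgeR adjusted p = 0.0181) and not against DH-LMP2A (0.93 ± 0.26, SE, adjusted p = 0.0979). Ect2, the exchange factor that activates RhoA for the ring, was at 1.15 ± 0.35 and 0.80 ± 0.32 (SE, edgeR adjusted p = 0.129 and 0.316).

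**Figure D3:**
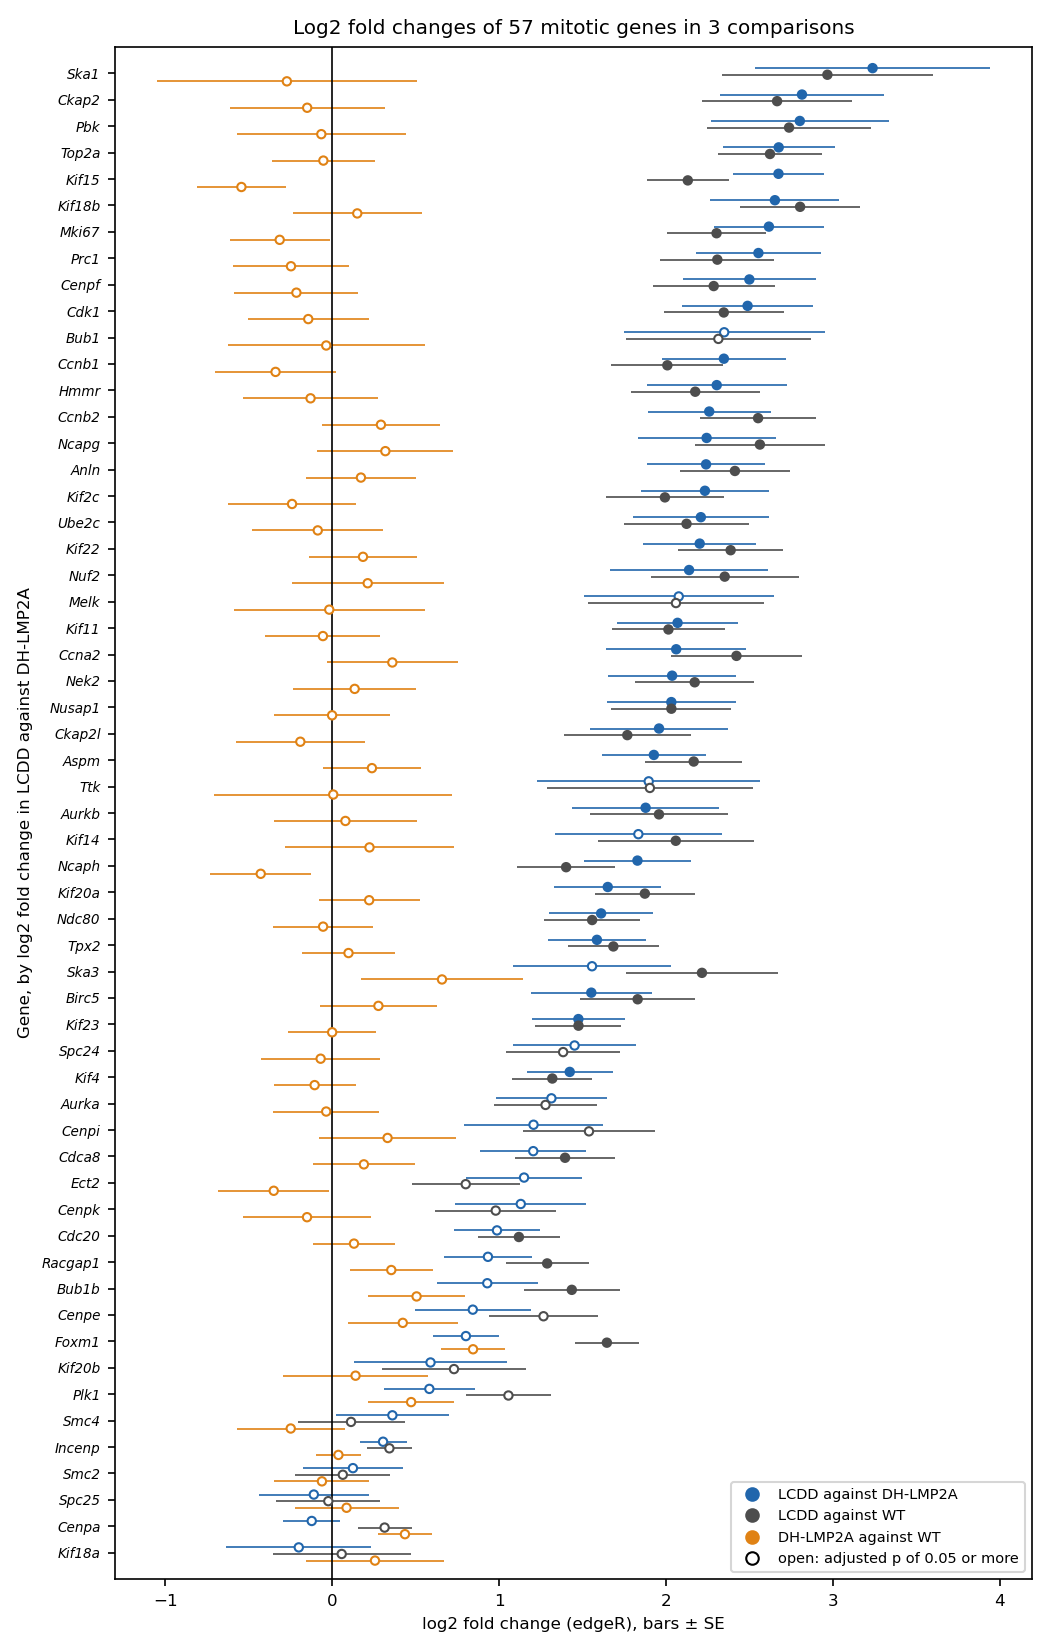
Log2 fold changes of the 57 tested members in LCDD against DH-LMP2A, LCDD against WT and DH-LMP2A against WT, with bars of 1 SE and filled points for calls at an edgeR adjusted p under 0.05. Values against both other genotypes mostly lie between 1 and 3, and those of DH-LMP2A against WT scatter around 0.

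The members called in neither LCDD comparison, 17 of 57, were of different kinds. Smc2, Smc4, Cenpa, Spc25, Incenp and Kif18a had differences between -0.20 and 0.36 in both comparisons, while Bub1, Melk and Ttk had differences of 1.90 to 2.35 with a wide spread. Of the 17, 7 had all LCDD libraries above all others. A missed threshold does not show that these genes were at equal levels.

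Members that were abundant in WT glomeruli tended to differ less. Per kilobase of exon, the highest levels in WT belonged to Smc4 (6.80 CPM per kilobase), Incenp (4.06) and Smc2 (3.50), and in LCDD the same genes led at 7.37, 5.15 and 3.66. Behind them in LCDD came Cdk1 (3.12), Cdc20 (3.05), Mki67 (3.03) and Top2a (2.77), which stood at 0.61, 1.40, 0.61 and 0.45 in WT. The lowest level in LCDD was that of Kif14, 0.11 CPM per kilobase. The 19 members with the lowest WT level per kilobase had a median log2 fold change of 2.20 against DH-LMP2A, the middle 19 had 1.88 and the highest 19 had 0.93. Across the 57 genes the rank correlation of WT level with that fold change was -0.505, a description over genes that are not independent. Some members low in WT passed the read filter only through their LCDD libraries: in a fit of DH-LMP2A and WT alone, 52 members passed. Such members can enter only when higher in LCDD, so the filter itself can produce part of this trend.

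The difference was present under every title code, and its size was not the same in each. LCDD minus DH-LMP2A, the median over the 57 members in log2 CPM was 2.35 under the first code, 1.85 under the second, 1.26 under the third and 1.13 under the fourth, with 57, 53, 54 and 52 members above 0. The medians over all genes lay between -0.02 and 0.00. Members higher by more than 1 numbered 53, 40, 36 and 35, beside 5.48%, 7.49%, 3.60% and 4.78% of all genes. LCDD minus WT was 2.44, 1.56 and 1.37 under the codes that hold WT. DH-LMP2A minus WT was 0.19, 0.35 and 0.17. Each code holds 1 LCDD library, so a difference between codes cannot be told apart from one between libraries, and it was not tested.

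**Figure D4:**
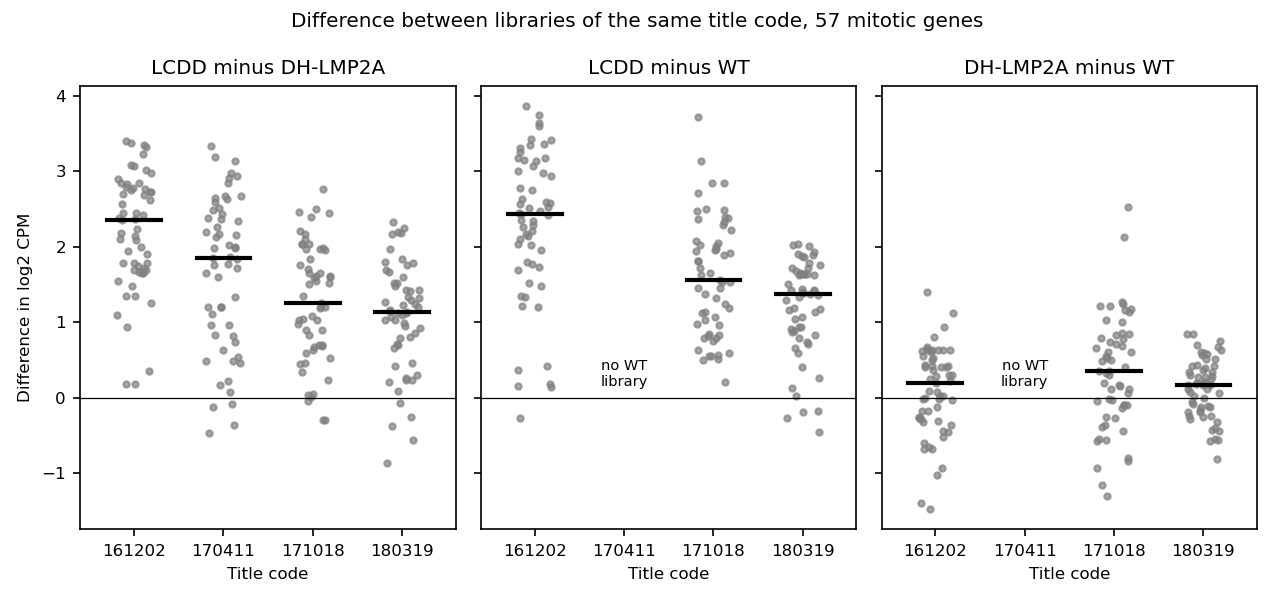
Each point is 1 of 57 members, as the difference in log2 CPM between libraries of the same title code, with a bar at the median. LCDD minus DH-LMP2A has medians of 2.35, 1.85, 1.26 and 1.13 in code order. DH-LMP2A minus WT has medians of 0.19, 0.35 and 0.17, with single members from -1.47 to 2.52.

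LCDD replicate 1 gave the top value of its genotype in 53 of the 57 tested members. Without it the count against DH-LMP2A was 25 and the median 1.49, beside 123 genes called higher over all genes tested. The members also moved together from library to library: the correlation of a member with the mean standardised level of the other members over the 13 libraries had a median of 0.926, beside 0.0563 for all genes, and was above 0.9 for 33. It was lowest for Kif18a, Spc25, Cenpa, Smc2 and Smc4, at 0.15 to 0.36. After each genotype mean was subtracted the median correlation was 0.707, and the lowest values were those of Incenp (-0.36) and Cenpa (-0.07). No value over all genes stands beside the 0.707. The library medians of the members spread most in LCDD (SD 0.57, n = 4), beside 0.11 in DH-LMP2A (n = 4) and 0.31 in WT (n = 5). LCDD replicate 1 had the highest median, 2.82 log2 CPM, and its part in the 0.707 was not tested. These correlations share library depth and the genotype contrast and carry no test.

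DH-LMP2A replicate 1 and WT replicate 2 read low in the same 6 members, Smc2, Smc4, Cenpe, Kif18a, Kif20b and Ect2. In both libraries these lay under 0.67 of the lowest other library of the genotype, as did 2.56% of all genes tested. Their longest transcripts are AT-rich, with GC contents of 38.2% to 42.9% beside a median of 46.0% over the members and 49.7% over all genes. The members with the lowest GC content, Ncapg (34.8%) and Cenpk (37.1%), deviated by -0.03 and 0.18 log2 in DH-LMP2A replicate 1 and by -0.44 and -0.29 in WT replicate 2. In genes under 43.9% GC, the median deviation from the genotype median was -0.20 log2 in DH-LMP2A replicate 1 and -0.45 in WT replicate 2; in genes over 55.4% GC it was 0.10 and 0.28. The part that GC content plays in these members was not tested. With offsets for GC content, 33 members were called against DH-LMP2A and 44 against WT, beside 224 and 249 genes called higher over all genes tested. Ect2 was then called against DH-LMP2A (1.13, edgeR adjusted p = 0.036) and Birc5 was not (1.53, adjusted p = 0.0525). With both libraries left out, 34 and 40 members were called, beside 433 and 359 genes called higher over all genes tested.

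**Figure D5:**
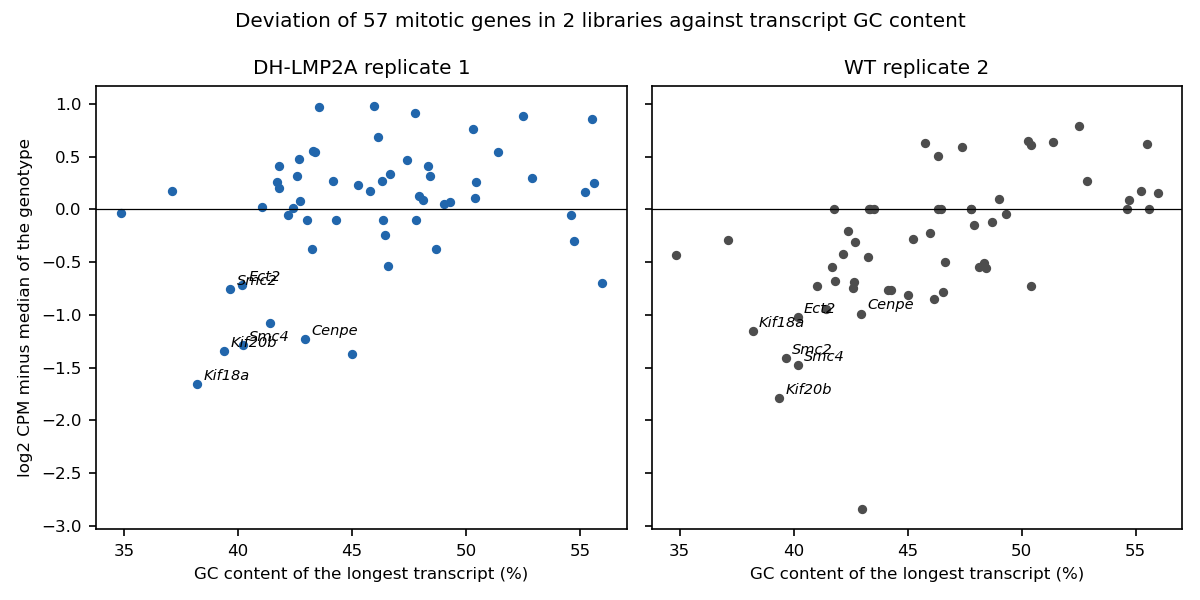
Deviation of each of 57 members from its genotype median, in log2 CPM, against the GC content of its longest transcript, in DH-LMP2A replicate 1 and WT replicate 2. The 6 named genes sit at 38.2% to 42.9% GC and below 0 in both libraries.

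Lists of other cell division genes had smaller medians. The members and these lists were chosen with earlier results of these data known, so the difference between lists is a description and was not tested. Of 68 further mitotic genes outside the 58, 66 were tested, and 11 were higher and 1 lower in LCDD than in DH-LMP2A. Their median was 0.45. Over all 16738 genes tested, 218 were higher and 116 lower in that comparison. Against WT, 15 were higher and 1 lower, with a median of 0.60, beside 217 and 91 over all genes tested. The genes named next were chosen after their values were seen. Kntc1, a checkpoint protein of the kinetochore, was at 2.53 and 3.04 (edgeR adjusted p = 0.00235 and 0.000325). Cep55, which acts at abscission, was at 2.30 and 2.32 (edgeR adjusted p = 0.0113 and 0.00661). Hjurp, the chaperone that loads the product of Cenpa, had a mean of 72.0 ± 20.7 CPM in LCDD (SD, n = 4) and 142 ± 24.3 CPM in DH-LMP2A (SD, n = 4), and was called lower in LCDD (-0.98, edgeR adjusted p = 0.0183). Pttg1, securin, was lower than WT in both LCDD (-3.27, edgeR adjusted p = 0.0275) and DH-LMP2A (-4.28, 0.0215), and its WT libraries ran from 1.55 to 54.2 CPM. Of 39 genes of DNA replication, 38 were tested, with medians of 0.31 against DH-LMP2A and 0.38 against WT. Called higher were 6 and 7, beside 1.30% of all genes tested in each comparison.

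Outside the 58, genes whose log2 CPM over the 13 libraries was most like the mean of the members included Kntc1 (r = 0.974), Stk39 (0.960), Tcf19 (0.958), Knstrn (0.953), Rrm2 (0.940), Fancl (0.936), Brca1 (0.936) and Iqgap3 (0.931), among 14526 genes of at least 1 CPM. Most have known places in mitosis or DNA metabolism; Stk39, a kinase of ion transport, is known for another role.

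Markers of the cell types of the glomerulus gave the following sums beside these results. Nphs1, which encodes nephrin of the podocyte slit diaphragm, ranged from 429 to 2962 CPM over the LCDD libraries, from 1176 to 3760 over DH-LMP2A and from 1145 to 3361 over WT. Podocyte markers (6 genes, 0 called) summed to 6729 to 29234 CPM in LCDD, 15118 to 29778 in DH-LMP2A and 13811 to 30445 in WT, with the lowest sum in LCDD replicate 1. Mesangial markers (6 genes) summed to 3565 to 6291 CPM in LCDD, 2454 to 3247 in DH-LMP2A and 2968 to 3798 in WT, with the highest sum in LCDD replicate 1. Ptn (1.09, edgeR adjusted p = 0.0334) and Sfrp2 (1.01, 0.0395) were the mesangial markers called against DH-LMP2A, and Ptn was also called against WT (1.12, adjusted p = 0.0191). The other 4 were not called against DH-LMP2A, with Itga8 at 0.88, Des at 0.52, Gata3 at 0.49 and Pdgfrb at 0.14 (edgeR adjusted p = 0.102 to 0.831). Endothelial markers (6 genes, 0 called) summed to 4585 to 10922, 3190 to 8586 and 6672 to 10971 CPM. Parietal epithelial markers (6 genes) summed to 33.1 to 74.1, 52.9 to 73.0 and 30.1 to 64.3 CPM, and 1 was called lower in LCDD against DH-LMP2A. Macrophage markers ran from 96.7 to 232, 79.5 to 186 and 86.7 to 257 CPM, and T and NK cell markers from 3.34 to 6.51, 2.51 to 3.83 and 2.51 to 10.9. Erythroid precursor markers, of cells that divide in blood-forming tissue, ran from 174 to 496, 222 to 480 and 131 to 644 CPM. B and plasma cell markers ran from 5.72 to 7.98, 4.75 to 11.8 and 12.1 to 36.7 CPM, and proximal tubule markers from 213 to 788, 244 to 1672 and 28.8 to 1672. Of these lists none had a marker at 3 counts or fewer in every library. Their part in the member differences was not tested.

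Exons of 16 of the 58 members overlap those of another gene, and in 8 the other gene, on the opposite strand, exceeds 1 CPM. Those 8 are Ccna2, Ncapg, Cdc20, Cdca8, Kif18a, Kif20a, Kif4 and Prc1. The strand setting of the counting is not given in the sources used here, so part of their reads may belong to the neighbour. For Kif20a the neighbour is Cdc23 (named for this overlap), at a mean of 73.9 CPM beside 3.05 for Kif20a.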

How the data were processed

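The deposited table holds raw read counts for each gene; per the file headers, which carry its annotation columns, the authors used featureCounts. The submitters' processing notes name STAR 2.4.0a, featureCounts of Subread 1.5.0-p3, DESeq2 and the builds mm10 and GRCm38. The strand setting and the treatment of multi-mapping reads are not given in the sources used here.

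The members and gene lists were chosen with earlier results of these data known, so no test was run over a list. All 13 libraries entered one quasi-likelihood fit in edgeR 4.0.16 (R 4.3.3) with 1 coefficient per genotype, TMM scaling, and filterByExpr with a minimum count of 10, which kept 16738 of 46958 genes. Benjamini-Hochberg adjustment ran over these genes, and a gene is called at an adjusted p under 0.05. Values per library are TMM-scaled CPM; log2 CPM uses a prior count of 2. SE is taken as log2 fold change over the root of F. A floor of 3 counts is 0.0971 to 0.185 CPM. Counts carry no molecular identifiers. The SE and p-values cover the spread between libraries as well as counting error.

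Libraries were grouped by the genotype label. The title code was treated as a possible pairing. LCDD and DH-LMP2A libraries of one code correlated in their deviations at 0.153 to 0.593, and those of different codes at -0.599 to 0.524. Libraries of one code correlated with those of WT at -0.165 to 0.568. The blocked fit therefore stands beside the results for the first comparison only. Chi-square per degree of freedom between libraries of one genotype was 12.6 to 234 over 22 pairs, so no library looked deposited again. In counts simulated for 16528 genes, edgeR recovered 46% of genes changed by 1 on the log2 scale and 84% of those changed by 2 in LCDD against DH-LMP2A, and 50% and 83% against WT. Of the genes called, 11 of 141 and 4 of 137 were false. The changed genes had a mean of at least 1 CPM, so these rates do not cover members below that, such as Ska1 (0.355 CPM) and Cenpk (0.485 CPM).

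Alternatives were DESeq2 1.42.0, RLE scaling, other filters, fits of 2 genotypes, the block, leaving out libraries, Y-linked and proximal tubule covariates and, added after the data were seen, combined settings and GC offsets. In each of 8 role groups the 3 tested members with the highest mean CPM are given by library; members not tested or called in neither comparison, and the extremes of each comparison, are also named. Of the 10 other genes most like the members, 2 are not reported here.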

Additional observations from a re-analysis of the deposited data

Results flagged for a closer look

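In 10 of the 111 groups of libraries examined, 1 library stood apart by Dixon's criterion on log2 CPM. Chance gives about 1 in 20. A group was a gene, or the median of the tested members, in a genotype. LCDD replicate 1 stood above its genotype in Plk1 (2.01, others 1.26 to 1.38), Racgap1 (3.75, others 2.75 to 2.86), Bub1 (2.05, others 0.39 to 0.57) and Melk (1.76, highest other 0.28). DH-LMP2A replicate 1 stood above in Cdk1 (1.64, others 0.61 to 0.76) and Ckap2l (1.31, others 0.21 to 0.37). WT replicate 2 stood below in Smc4 (3.82, others 5.26 to 5.55), Smc2 (3.09, others 4.17 to 4.60) and Kif20b (-0.39, others 1.38 to 2.06). WT replicate 5 stood above in Cdca8 (0.74, others -0.08 to 0.10).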

How the results depend on the processing

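No called member changed direction under any alternative. Of the 33 members called against DH-LMP2A, 12 were called under every alternative in which they were tested (20 or 21 each), and of the 40 called against WT, 0 were under every alternative and 26 were outside the Y-linked, single-mouse and 5 CPM settings. A mean of at least 5 CPM left 10 members tested. Of these, 3 were called against DH-LMP2A (median 0.57), 5 against WT (median 0.82) and 3 in both. That filter called 91 of all 11613 genes tested higher against DH-LMP2A and 75 against WT. Leaving out 1 library gave 13 to 34 calls against DH-LMP2A, 29 to 39 against WT, 0 to 1 for DH-LMP2A against WT and 13 to 34 in both. Over all genes tested, those fits called 71 to 291 genes higher against DH-LMP2A and 112 to 297 against WT. Fits of 2 genotypes gave 21 in both, and over all genes tested called 123 higher against DH-LMP2A and 127 against WT. Without the single-mouse WT libraries 5 were called against WT and 4 in both (6 and 5 with the block). With the Y-linked covariate these counts were 0 and 0. Over all genes tested, 28 were called higher against WT without those libraries (26 with the block) and 9 with the covariate. The cause of these falls was not tested. With the title code as a replicate block alone, 40 were called against DH-LMP2A, 39 against WT, where Ska3 was lost (2.14, edgeR adjusted p = 0.0528), and 0 for DH-LMP2A against WT. DESeq2 called 1 there. The median of DH-LMP2A against WT, 0.01, was -0.0020 to 0.13 when 1 library was left out, 0.16 without the single-mouse libraries (0.22 with the block) and -0.14 with the tubule covariate (0.19 with the block).

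Signs that changed were all of members called in neither comparison. Against DH-LMP2A, leaving out 1 library gave -0.36 to 0.0035 for Spc25 (0.012 with the tubule covariate), -0.50 to 0.092 for Kif18a (0.0021 with block and tubule covariate) and -0.053 to 0.29 for Smc2 (-0.014 with the Y-linked covariate, -0.052 without DH-LMP2A replicate 1 and WT replicate 2). Against WT it gave -0.27 to 0.28 for Spc25 (0.64 with the Y-linked covariate), -0.15 to 0.15 for Kif18a (-0.026 with block and tubule covariate), -0.12 to 0.20 for Smc4 and -0.15 to 0.16 for Smc2. Without DH-LMP2A replicate 1 and WT replicate 2, the last 3 were at -0.12, -0.088 and -0.12. Members with under 10 counts in a library, such as Ska1 and Cdc25c, are limited by depth.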
